A study of Drosophila melanogaster with 2 samples.

Results

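The regions described here are the alternative promoters of Drosophila melanogaster genes, set by whether the GFP-tagged protein gfzf was bound at them. A promoter is represented by a cluster of annotated transcription start sites (TSSs), and TSSs of 1 gene fell in different clusters when more than 1000 bp separated them. Among 13968 protein-coding genes, 1666 had 2 or more clusters, and they held 4117 of the 16419 clusters of all genes. A cluster was called bound when the summit of a peak lay within 250 bp of any of its TSSs, and unbound otherwise. The rule for the members uses annotation alone, so position, motifs and annotation could be compared between bound and unbound clusters of the same gene. The rule, the motifs and the gene lists were chosen with earlier results of these data known.

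Chromatin immunoprecipitation and sequencing was done with an anti-GFP antibody on whole embryos of mixed sex, aged 0 to 24 h, from a transgenic line that stably expresses gfzf with GFP at its C-terminus. The series is 1 group of 2 biological replicates without a comparison of conditions, and nothing in the labels tells whether separate embryo collections were used. The binding calls rest on the authors' set of 5007 peaks that passed a filter on the irreproducible discovery rate (IDR) between the replicates, called the optimal set here. Cell types, stages and sexes are mixed in these embryos, so a cluster bound in some cells cannot be told apart from one bound less often in all cells, and whether each annotated promoter is used in embryos was not analysed here.

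Many fly genes start transcription at several promoters, which can differ in tissue, stage or the protein isoform that they produce. Core promoters of the fly fall broadly into classes, among them those of widely expressed genes, which carry elements such as the DNA replication-related element (DRE) and Motif 1, and those of developmental genes, which more often carry an Initiator, a downstream promoter element (DPE) or GAGA sequences. The protein gfzf joins FLYWCH zinc fingers to a domain of the glutathione S-transferase type. It is known from hybrid incompatibility between fly species and as a partner of the Motif 1 binding protein M1BP at promoters.

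The sequences of 5 genes show what a bound and an unbound promoter of the same gene look like. The first 4 genes have the strongest bound clusters among genes with bound and unbound promoters, and Sxl, the switch gene of sex determination, was added after the values were seen because its promoters are well known. Each sequence comes from the dm6 assembly as held in RefSeq, runs 5′ to 3′ from 100 bases before to 20 bases after the most used TSS, and has matches to the Motif 1 core GGTCACAC, the DRE, Motif 6, Motif 7, the TATA box and the Initiator in capitals. A match is a description of the letters and was not tested as a functional site.
alt cluster 1 (bound, chr3R:17682496-17682615, minus strand): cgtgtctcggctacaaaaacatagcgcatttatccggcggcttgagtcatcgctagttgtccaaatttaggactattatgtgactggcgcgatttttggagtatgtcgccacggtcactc
alt cluster 2 (unbound, chr3R:17679857-17679976, minus strand): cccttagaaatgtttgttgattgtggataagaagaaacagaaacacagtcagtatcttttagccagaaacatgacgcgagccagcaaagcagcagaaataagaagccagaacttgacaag
Unc-76 cluster 1 (bound, chrX:2080510-2080629, plus strand): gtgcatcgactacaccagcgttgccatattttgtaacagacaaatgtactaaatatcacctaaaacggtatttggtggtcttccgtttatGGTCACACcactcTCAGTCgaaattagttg
Unc-76 cluster 2 (unbound, chrX:2089236-2089355, plus strand): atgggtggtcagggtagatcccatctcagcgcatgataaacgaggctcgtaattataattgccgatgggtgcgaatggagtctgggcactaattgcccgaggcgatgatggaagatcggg
Jupiter cluster 1 (bound, chr3R:11619887-11620006, minus strand): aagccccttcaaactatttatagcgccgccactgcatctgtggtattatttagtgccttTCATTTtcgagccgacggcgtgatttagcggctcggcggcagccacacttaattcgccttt
Jupiter cluster 2 (unbound, chr3R:11604735-11604854, minus strand): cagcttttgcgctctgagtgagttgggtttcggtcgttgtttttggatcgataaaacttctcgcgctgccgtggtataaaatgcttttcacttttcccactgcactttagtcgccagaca
Atg8a cluster 1 (bound, chrX:10768319-10768438, minus strand): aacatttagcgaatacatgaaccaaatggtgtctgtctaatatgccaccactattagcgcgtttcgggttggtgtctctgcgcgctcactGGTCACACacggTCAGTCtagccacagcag
Atg8a cluster 2 (unbound, chrX:10767287-10767406, minus strand): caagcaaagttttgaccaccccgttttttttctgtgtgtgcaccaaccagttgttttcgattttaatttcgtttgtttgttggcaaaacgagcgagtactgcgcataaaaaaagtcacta
Sxl cluster 1 (bound, chrX:7098034-7098153, minus strand): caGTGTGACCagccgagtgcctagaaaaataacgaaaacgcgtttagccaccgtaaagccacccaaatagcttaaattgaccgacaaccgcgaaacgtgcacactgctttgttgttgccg
Sxl cluster 2 (unbound, chrX:7092864-7092983, minus strand): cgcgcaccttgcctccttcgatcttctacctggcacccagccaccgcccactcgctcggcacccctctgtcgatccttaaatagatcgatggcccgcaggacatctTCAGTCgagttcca

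The bound windows of Unc-76 and Atg8a each held the Motif 1 core from position −10 and an Initiator just after the TSS, while the unbound windows of the same genes held no match to the 6 elements. The bound window of Sxl held the core on the other strand at its far upstream end, at −98, and the unbound window held an Initiator after the TSS. The bound window of Jupiter held an Initiator at −41 only. Both windows of alt held none of the 6 elements, although its bound cluster carried the strongest peak of the optimal set.

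Bound clusters were a minority of alternative promoters. Of the 4117 clusters, 746 (18.1%, 95% exact Clopper-Pearson interval 17.0 to 19.3) were bound, against 3935 of the 12302 clusters of genes with 1 cluster (32.0%, 31.2 to 32.8). Over all 16419 clusters 28.5% were bound. At the level of the gene, 674 of 1666 genes (40.5%, 38.1 to 42.9) had at least 1 bound cluster, against 33.0% of all protein-coding genes. A gene with more clusters has more places where a summit can count, so these shares are given without a test. Intervals cover the counting of clusters only and treat clusters as independent, which they are not where 1 summit binds several genes. Among the 746 bound clusters, 222 shared their summit with a cluster of another gene, and the bound clusters used 721 distinct summits.

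Most of the bound genes were bound at exactly 1 promoter. Every cluster was bound in 35 genes (2.10%), some but not all clusters in 639 (38.4%) and no cluster in 992 (59.5%). The 35 genes all had 2 clusters. Exactly 1 cluster was bound in 605 genes and 2 or more in 69. Of the 1206 genes with 2 clusters, 436 had 1 bound cluster, and of the 71 genes with 5 to 16 clusters, 37 had some and 0 had all clusters bound. In genes with 2 clusters, cluster 2 was bound in 35 of 384 cases where cluster 1 was bound (9.11%, 6.43 to 12.4) and in 87 of 822 cases where cluster 1 was not (10.6%, 8.56 to 12.9), and these intervals overlap.

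The bound cluster was usually the most 5′ one. Counting from the 5′ end, cluster 1 was bound in 553 of 1666 genes (33.2%, 30.9 to 35.5), close to the share for genes with 1 cluster. Cluster 2 was bound in 152 of 1666 genes (9.12%, 7.78 to 10.6), cluster 3 in 26 of 460 (5.65%, 3.73 to 8.17) and cluster 4 in 8 of 177 (4.52%, 1.97 to 8.71). Cluster 5 was bound in 5 of 71 genes (7.04%, 2.33 to 15.7), and 2 of the 77 clusters from the sixth on were bound (2.60%, 0.316 to 9.07). The intervals from cluster 2 on overlap, and that of cluster 1 lies above them. Among the 639 genes with bound and unbound clusters, the 5′-most cluster was bound and the 3′-most was not in 507, and the reverse held in 98 (83.8% of 605, 80.6 to 86.6). The log2 ratio of the 2 counts was 2.37 (two-sided exact sign test, p = 1.98e-67). In genes with exactly 2 clusters the counts were 349 and 87 (log2 ratio 2.00, exact p = 3.06e-38).

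**Figure D1:**
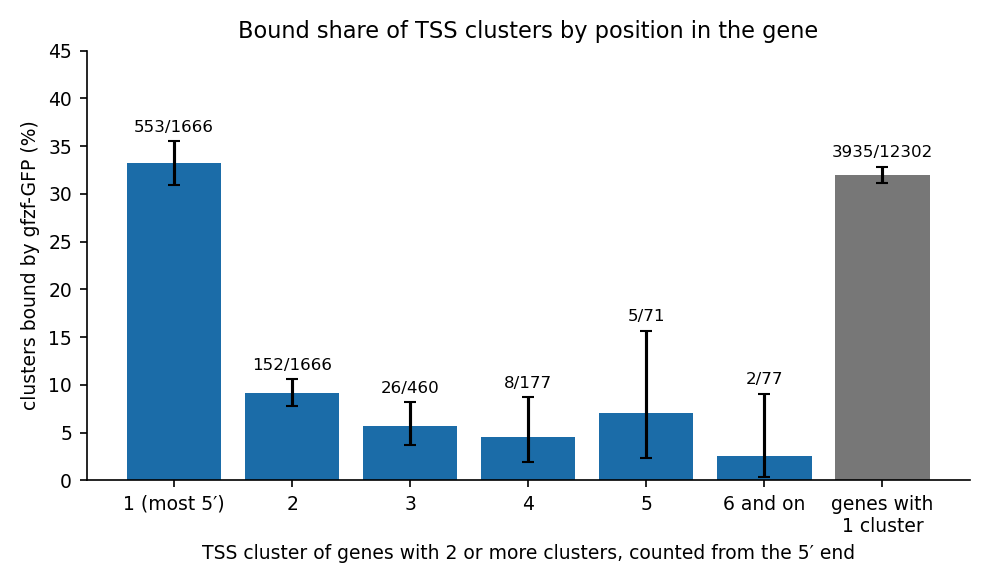
Percentage of TSS clusters bound by gfzf-GFP (y axis) by position of the cluster counted from the 5′ end (x axis), with genes of 1 cluster at the right. Bars are shares, error bars are 95% exact Clopper-Pearson intervals and the counts above give bound clusters over all clusters; cluster 1 stands at 33.2%, like the 32.0% of genes with 1 cluster, and every later position stands below 10.

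Bound 5′-most clusters also had a higher median signal than bound clusters inside the gene, a difference given without a test. Signal is the authors' peak signal, whose scale the sources do not state, and it is compared only within 1 list. The median signal in the optimal set was 889 at 553 bound 5′-most clusters (quartiles 194 and 2586) and 275 at 193 bound internal clusters (144 and 2216), and these ranges overlap widely. Over all bound clusters of multi-promoter genes the median was 634, against 694 in genes with 1 cluster. The median summit lay upstream of the TSS closest to it, at −59.5 bp (quartiles −104 and −29). Internal clusters in introns were bound in 160 of 2175 cases (7.36%, 6.29 to 8.53), those in untranslated exons in 31 of 239 (13%, 8.99 to 17.9) and those in coding exons in 2 of 37 (5.41%, 0.661 to 18.2).

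A neighbouring gene on the opposite strand went with binding at 5′-most and internal clusters alike. With the TSS of such a gene within 1000 bp, 305 of 541 5′-most clusters (56.4%, 52.1 to 60.6) and 63 of 155 internal clusters (40.6%, 32.8 to 48.8) were bound. Without one, 248 of 1125 5′-most clusters (22.0%, 19.7 to 24.6) and 130 of 2296 internal clusters (5.66%, 4.75 to 6.69) were. Genes with 1 cluster had 54.96% bound with such a neighbour and 18.6% without. All clusters that had the TSS of another gene within 1000 bp were then left out, and genes that kept 2 or more clusters were compared. The first of the remaining clusters was bound and the last was not in 213 genes, and the reverse held in 52 (log2 ratio 2.02, exact sign test, p = 2.63e-24). A remaining first cluster need not be the 5′-most one of its gene. The part of the neighbour in the position result was not tested.

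The gene-by-gene comparison used 1 bound and 1 unbound cluster from each of the 639 genes, the bound cluster of highest signal and the unbound cluster nearest to it. They lay a median of 3058 bp apart (quartiles 1711 and 7305), and in 351 pairs (54.9%) they led to at least 1 shared start codon. The bound clusters had a median signal of 889 (quartiles 195 and 2641). Of the unbound partners, 266 (41.6%) had a summit within 250 bp in the relaxed pooled list, which holds 30000 peaks and background regions, with a median signal of 25.8 and a highest value of 87.3. The separation of these signals follows from the definition of bound and is no finding.

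Bound clusters started more of the annotated transcripts and lay more often beside another gene. More transcripts started at the bound cluster in 374 genes and at the unbound one in 96, with 169 ties (medians 2 and 1, log2 ratio 1.96, exact sign test with Benjamini-Hochberg adjustment over 5 features, p = 1.44e-39). A gene on the opposite strand lay within 1000 bp of 319 bound clusters (49.9%) and 49 unbound ones (7.67%). It was beside the bound cluster alone in 286 genes and the unbound one alone in 16 (log2 ratio 4.12, exact McNemar test, adjusted p = 1.98e-64). Any other gene lay that close to 346 bound and 76 unbound clusters (log2 ratio 3.64, adjusted exact p = 2.15e-60). The GC content of the window from −100 to +50 was lower at bound clusters (median 44.0%) than at unbound ones (46.7%). It was higher at the bound cluster in 261 genes and at the unbound one in 358 (log2 ratio −0.46, adjusted exact p = 1.11e-04). The bound cluster had more distinct TSSs in 142 genes and the unbound one in 68 (log2 ratio 1.06, adjusted exact p = 4.51e-07). Each further TSS widens the stretch in which a summit counts, so this last result is partly built into the rule. It lost its call where the unbound cluster had to hold a relaxed summit (57 and 46 genes, log2 ratio 0.31, adjusted exact p = 0.324), and the GC difference lost its call without clusters near another gene (adjusted exact p = 0.114). In the 113 genes whose bound cluster lies 3′ of its unbound partner, a setting chosen after the data were seen, the GC difference also lost its call (53 and 57 genes, log2 ratio −0.10, adjusted exact p = 0.775). An opposite-strand gene was then beside the bound cluster alone in 28 genes and the unbound one alone in 7 (log2 ratio 1.93, adjusted exact p = 0.00127), and the log2 ratio for any other gene was 1.19 (adjusted exact p = 0.0207).

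The core of Motif 1 was found almost only at the bound promoter of a gene. It lay in the window of 126 bound clusters (19.7%) and 1 unbound cluster (0.156%), with 5.87% of all 16419 clusters holding it. No pair held it on both sides, and the log2 ratio of 126 to 1 was 6.40 (exact McNemar test adjusted over 14 motifs, p = 2.11e-35). The exception was CG4884, whose bound cluster 2 lacked the core and whose unbound cluster 1 held it. The core was searched as GGTCACAC on either strand, and it is the sequence recognised by M1BP.

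The DRE, Motif 7, Motif 6 and the E-box of Motif 5 went the same way. The DRE, searched as ATCGAT with A or T on each side, lay in 134 bound clusters (21.0%) and 16 unbound ones (2.50%), against 11.5% of all clusters. It was in the bound cluster alone in 130 genes and the unbound one alone in 12 (log2 ratio 3.38, adjusted exact p = 2.40e-25). The 4 genes with the DRE at both clusters were Asator, Desat1, htk and mute, where Desat1 encodes a fatty acid desaturase. Motif 7 lay in 81 bound clusters (12.7%) and 16 unbound ones (2.50%; 6.57% of all clusters), with 77 and 12 genes holding it on 1 side (log2 ratio 2.63, adjusted exact p = 4.22e-12). Motif 6 lay in 29 bound and 0 unbound clusters (1.42% of all; log2 ratio 5.88, adjusted exact p = 1.04e-08), and the E-box of Motif 5 in 26 bound and 3 unbound ones (2.67% of all; log2 ratio 2.92, adjusted exact p = 3.02e-05).

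The Initiator, GAGA and TCT sequences lay more often at the unbound cluster. The Initiator, searched on either strand as TCA, G or T, T and a pyrimidine, lay in 204 bound clusters (31.9%) and 327 unbound ones (51.2%; 44.1% of all clusters). It was in the bound cluster alone in 100 genes and the unbound one alone in 223 (log2 ratio −1.15, adjusted exact p = 2.22e-11). Placed on the sense strand with its start between −10 and +5, it lay in 56 bound clusters (8.76%) and 128 unbound ones (20.03%; 12.96% of all; log2 ratio −1.33, adjusted exact p = 5.06e-08). GAGAG lay in 136 bound clusters (21.3%) and 204 unbound ones (31.9%; 19.9% of all; log2 ratio −0.82, adjusted exact p = 3.02e-05). Among the windows of multi-promoter genes alone, 28.7% held GAGAG. TCT, searched anywhere in the window on either strand as CTTT flanked by a pair of pyrimidines on each side, lay in 70 bound and 102 unbound clusters (11.9% of all; log2 ratio −0.66, adjusted exact p = 0.0141). The placed Initiator is a subset of the sense matches of the Initiator.

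The remaining 5 searches did not pass. The TATA box, TATA followed by A or T, AA and A or G, lay in 32 bound and 21 unbound clusters (10.9% of all; log2 ratio 0.60, adjusted exact p = 0.237). When it had to start from −45 to −20 on the sense strand, the counts were 13 and 8 (5.13% of all; adjusted exact p = 0.447). Among the windows of multi-promoter genes alone, 5.22% held the TATA box and 1.99% the placed one. The DPE, A or G, G, A or T and CGTG, lay in 32 bound and 29 unbound clusters (4.20% of all; adjusted exact p = 0.795). CAGGTAG, the site of the early activator Zelda, lay in 3 bound and 5 unbound clusters (0.828% of all; adjusted exact p = 0.782), and the Pho sequence, GCCAT with T after any 2 bases, in 49 and 40 (6.51% of all; adjusted exact p = 0.447). No match says only that these letters are not in the window.

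About as many pairs held none of the Motif 1 core, DRE, Motif 6 and Motif 7 as held 1 or more. At least 1 of these 4 lay in 304 of 639 bound clusters (47.6%) and 33 unbound ones (5.16%), and in 318 pairs (49.8%) neither cluster held any of the 4. Among the same 113 genes whose bound cluster lies 3′ of its unbound partner, the Motif 1 core was in the bound cluster alone in 17 genes and the unbound one alone in 1 (log2 ratio 3.54, adjusted exact p = 0.00203), and the DRE in 16 and 3 (log2 ratio 2.24, adjusted exact p = 0.0310). The 7 other motifs kept their direction and did not pass in these fewer genes, with adjusted exact p from 0.0683 to 0.716. Their log2 ratios were larger than over all 639 genes for the placed Initiator (−1.58) and TCT (−0.83), and smaller for Motif 6 (3.17, from 4 and 0 genes), the E-box (2.12), Motif 7 (1.08), the Initiator (−0.70) and GAGA (−0.38). In single settings, GAGA and the E-box also lost their call without clusters near another gene (adjusted exact p = 0.132 and 0.153), and TCT lost it in 6 of 17 alternatives. The TATA box gained a call in a window from −250 to +100 (115 genes with it at the bound and 66 at the unbound cluster alone, adjusted exact p = 5.19e-04) and in 2 further settings.

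**Figure D2:**
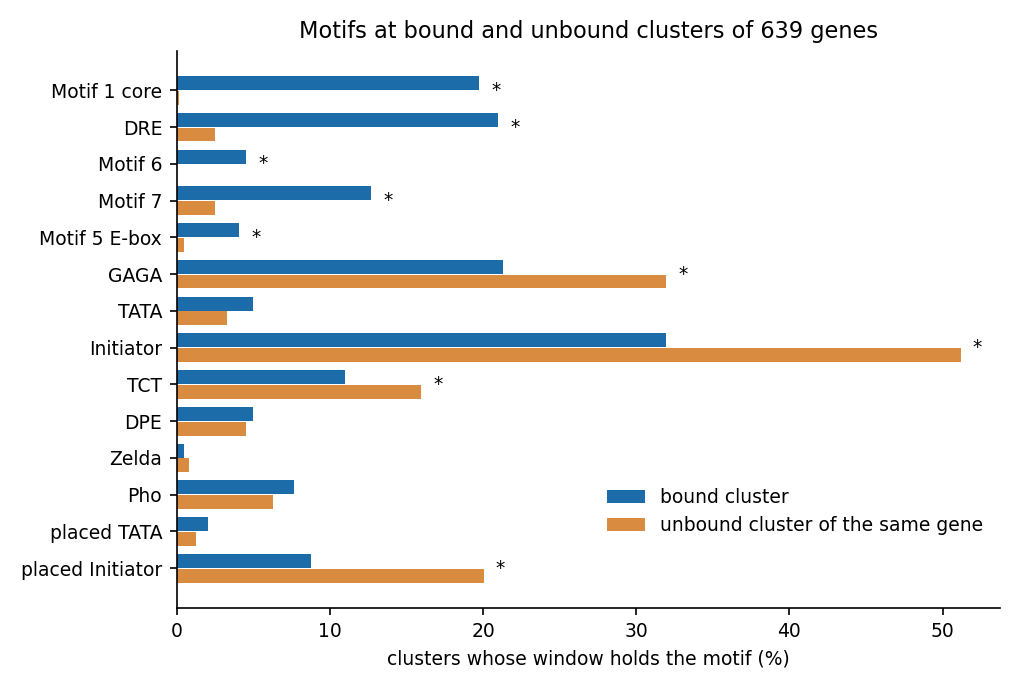
Percentage of clusters whose window from −100 to +50 holds each motif (x axis), for the bound cluster (upper, blue bar) and the nearest unbound cluster of the same gene (lower, orange bar) in 639 genes. An asterisk marks an adjusted exact McNemar p under 0.05; Motif 1 core, DRE, Motif 6, Motif 7 and the E-box are more frequent at bound clusters, and GAGA, Initiator, TCT and the placed Initiator at unbound ones.

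Taken over all 4117 clusters, most clusters with the Motif 1 core were bound both at the 5′ end and inside genes, with a lower share inside. Of 114 5′-most clusters with the core, 113 were bound (99.1%, 95.2 to 99.98), as were 22 of 29 internal clusters (75.9%, 56.5 to 89.7) and 781 of 821 clusters of genes with 1 cluster (95.1%, 93.4 to 96.5). The DRE went with a lower share, 130 of 187 5′-most clusters (69.5%, 62.4 to 76.0) and 31 of 87 internal ones (35.6%, 25.6 to 46.6), against 59.0% in genes with 1 cluster. The 7 unbound internal clusters with the core were those of Argk1, an arginine kinase gene, CAH2, a carbonic anhydrase gene, CG4390, Hers, Mhcl, Nt5c and Tao, a kinase gene. In 3 of them a summit lay outside the limit but within 500 bp, 257 bp away at CG4390, 326 bp at Mhcl and 406 bp at Nt5c. In the list of replicate 2 alone, the cluster of CG4390 had a summit within 250 bp, with a signal of 156. The lowest signal among the 5007 strongest peaks of that list was 35.4. Around the 250 bp limit itself, 51 clusters had their nearest summit 201 to 250 bp away and were bound, and 31 had it 251 to 300 bp away and were not. Around the 1000 bp limit between clusters, 99 gaps between neighbouring TSSs lay in the 100 bp below it and were joined, and 104 lay in the 100 bp above it and were split.

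The genes with the strongest bound cluster show the pattern at single loci. Their values are peak signals in the list of replicate 1, in that of replicate 2 and in the optimal set. At alt the bound cluster 1 had 9469 in replicate 1, 6246 in replicate 2 and 15685 in the optimal set, and the unbound cluster 2, 2639 bp downstream, had 34.2 and 11.1 in the replicates and was not listed in the pool. Unc-76, which encodes an axonal transport adaptor, had 7675, 4692 and 12332 at cluster 1, and 18.6 and 10.5 in the replicates and 32.5 in the relaxed pool at the unbound cluster 2. Jupiter, a microtubule-associated protein gene, had 6899, 4608 and 11497 at cluster 1, and its unbound cluster 2 had 12.8 in replicate 1 and was absent from the other lists, while cluster 3 was in none. In each of these genes every replicate value at the bound cluster lay more than 100 times above the values listed at the unbound ones, and the genes were chosen for these high values.

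Further genes of this group cover autophagy, signalling, adhesion and RNA regulation. Atg8a, a ubiquitin-like autophagy gene, had 6431, 4361 and 10760 at the bound cluster 1, and 10.5 in replicate 1 alone at cluster 2, only 1032 bp away. Lk6, a protein kinase gene, had 6519, 4170 and 10654 at cluster 1, and 16.04, 13.9 and 22.0 in the replicates and the relaxed pool at cluster 2. cno, which encodes an actin-binding protein of cell junctions, had 8907 in the optimal set at cluster 1, drongo 8178, Tpst, a protein tyrosine sulfotransferase gene, 7919, and sigmar 7879. In all 10 genes of this group, Sxl included, the bound cluster was cluster 1. The Motif 1 core lay in 6 of their 10 bound windows and in 0 of their 11 unbound ones. A gene on the opposite strand lay within 1000 bp of 5 of the bound clusters and 0 of the unbound clusters.

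**Figure D3:**
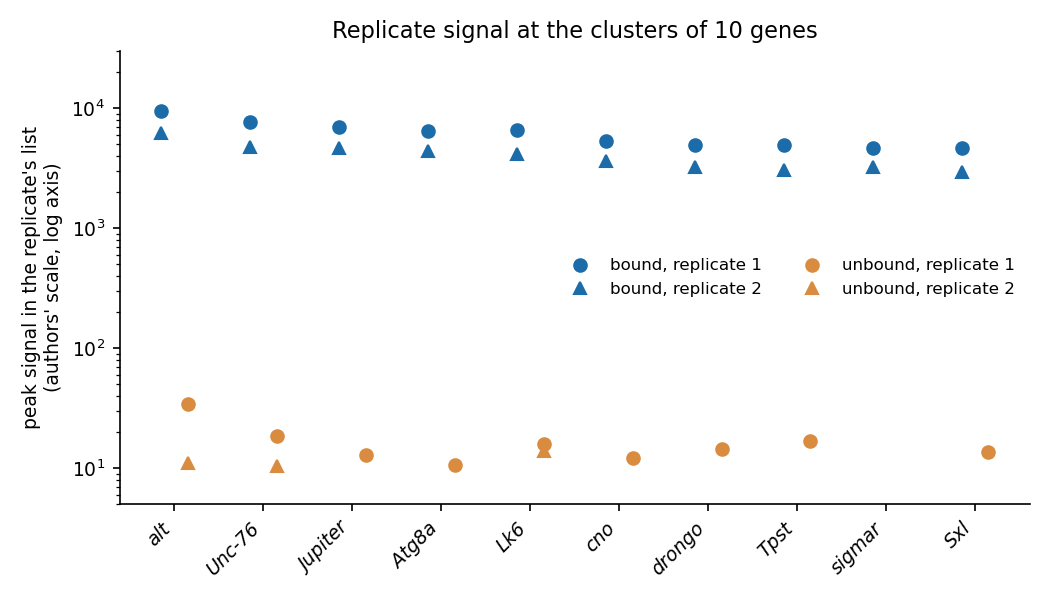
Peak signal in each replicate's own list (y axis, log scale, authors' scale) at the clusters of the 10 genes with the strongest bound cluster (x axis), bound clusters in blue to the left and unbound clusters in orange to the right of each gene. Circles are replicate 1 and triangles replicate 2, and a cluster with no listed summit has no point; at alt the bound cluster stands at 9469 and 6246 and the unbound one at 34.2 and 11.1.

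Binding calls at alternative promoters were largely the same in both replicates. With the 5007 strongest peaks of each replicate's list, 732 clusters were bound in replicate 1 and 722 in replicate 2, 681 of them in both, and 4025 of 4117 (97.8%) had the same call. The pattern over all clusters of a gene was the same in 1579 of 1666 genes (94.8%), and in 587 of the 639 genes with bound and unbound clusters (91.9%). The bound cluster had a higher signal than its unbound partner in both replicates in 631 of 639 genes (98.7%). The optimal set was made from these replicates, so this agreement is a description and was not tested.

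Most genes that are known for their alternative promoters were unbound, as were most multi-promoter genes. Of 20 such genes, 17 had 2 or more clusters by the rule. Of these 17, 4 had some clusters bound and 13 had none, and 5 of their 56 clusters were bound. Over all 1666 multi-promoter genes, 59.5% had no bound cluster and 18.1% of clusters were bound. None of their clusters was bound in Antp, a Hox gene, hb, a gap gene with separate maternal and zygotic promoters, or in the ecdysone response genes br, EcR, Eip74EF, Eip75B and ftz-f1. The same held for fru, the courtship regulator, the zinc finger genes lola and ttk, the homeobox gene ct, ush, which encodes a cofactor of GATA factors, and Act5C. Of the 51 unbound clusters, 18 had a summit in the relaxed pooled list, against 30.7% of all 3371 unbound clusters of multi-promoter genes. A placed Initiator lay in 19 of the 51, against 19.6% of all windows of multi-promoter genes. Cluster 5 of Eip75B had a signal of 87.7 at rank 5033 of the pooled list, just below the 5007 peaks of the optimal set. Some clusters were unbound with a summit not far away: cluster 2 of ush lay 532 bp from one, and clusters 1 and 2 of Act5C, a cytoplasmic actin gene, lay 380 and 741 bp from one. Pka-C1, trx and foxo had 1 cluster by the rule, bound at Pka-C1 (signal 3969) and trx (6814) and unbound at foxo.

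The 4 exceptions were Sxl, Egfr, Mef2 and Tm1. Sxl has a late maintenance promoter and a downstream early promoter that is used in young female embryos. Its bound cluster 1 lies at the position of the maintenance promoter and had 4637 in replicate 1, 2947 in replicate 2 and 7549 in the optimal set. Cluster 2, 5170 bp downstream, had 13.6 in replicate 1, no listed summit in replicate 2 and 18.0 in the relaxed pool. Cluster 1 started 21 of the annotated transcripts and cluster 2 started 4, and neither lay near the TSS of a gene on the opposite strand.

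Egfr, the epidermal growth factor receptor gene, was bound at cluster 1 (278.8, 151 and 427 in the replicates and the optimal set), whose summit lay 195 bp from the TSS, and not at cluster 2, 24223 bp downstream (10.5 in replicate 1 alone). Mef2, a muscle transcription factor gene, was bound at cluster 1 (605, 374 and 971), which held the Motif 1 core and the DRE, lay beside a gene on the opposite strand and started 2 of its transcripts. The unbound cluster 3 of Mef2 started 8 transcripts and had 13.6, 7.23 and 16.4 in the replicates and the relaxed pool. Tm1, a tropomyosin gene, was bound inside the gene, at clusters 3 (230, 176 and 410) and 4 (3104, 2352 and 5440) of 5. The summit of cluster 3 lay 221 bp from its TSS, near the limit of 250 bp. Cluster 1 of Tm1, which held the DRE and lay beside a gene on the opposite strand, was unbound with a summit 422 bp away. Cluster 4 of Tm1 held the Motif 1 core, whereas cluster 2, which started 11 of the transcripts, was unbound with 34.4, 10.7 and 41.2. In Mef2 and Tm1 the cluster with the most transcripts was thus unbound. The comparison over the 639 genes used the nearest unbound cluster instead. For Mef2 that was cluster 2, with 1 transcript against 2 at the bound cluster 1, in the direction of the 639 genes as a whole. For Tm1 it was cluster 5, with 3 transcripts against 2 at the bound cluster 4, against that direction.

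**Figure D4:**
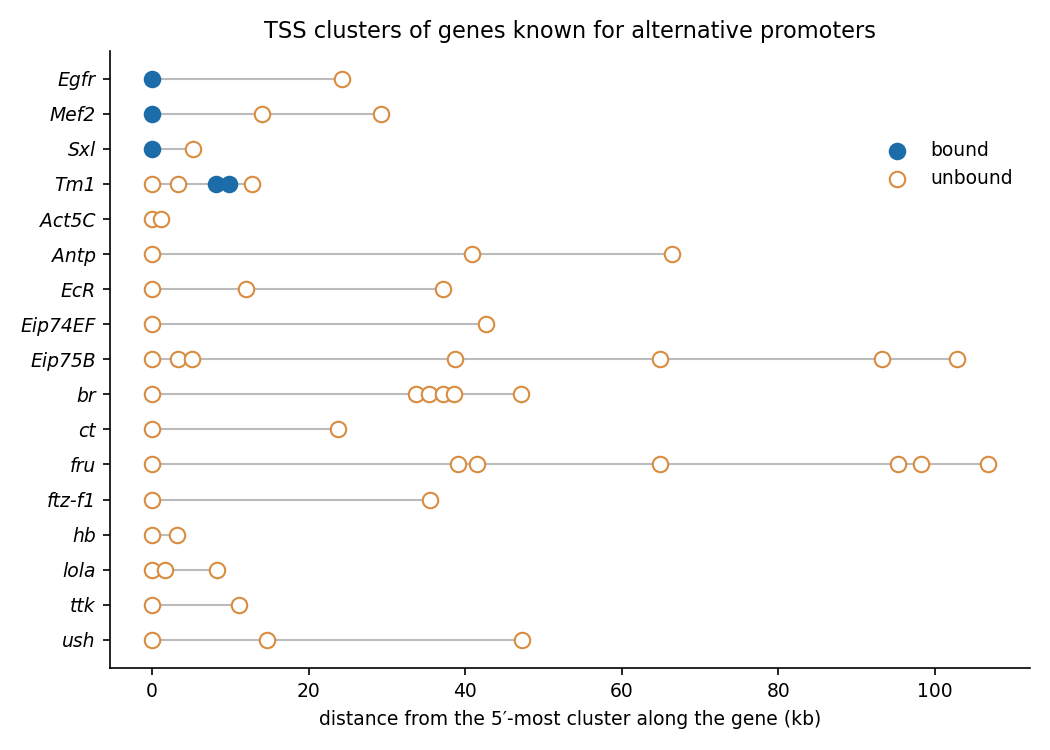
TSS clusters of the 17 genes known for alternative promoters that had 2 or more clusters, placed by distance from the 5′-most cluster (x axis, kb), with 1 gene per line. Filled blue circles are bound and open orange circles unbound clusters; Egfr, Mef2, Sxl and Tm1 at the top have 5 bound clusters between them and the other 13 genes have 0.

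Gene lists differed in how many of their multi-promoter members were bound. Each count stands beside that over all 1666 genes, where 639 (38.4%) had bound and unbound clusters and 18.1% of clusters were bound. Among 30 transcription factors of development, 3 had some clusters bound and 27 had none, and 3 of their 91 clusters were bound (3.30%). The 3 were Mef2, pnr, a GATA factor gene (cluster 1, signal 96.5), and sbb. Among 14 ion channel and synaptic genes, 2 had some clusters bound and 12 had none, and 2 of 40 clusters were bound. These were cluster 1 of Ca-alpha1D, a calcium channel gene (91.9), and cluster 2 of unc-13, a synaptic vesicle priming gene (107), both near 88.5, the lowest signal of any bound cluster of the multi-promoter genes.

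Regulators of chromatin and of signalling had higher shares of members bound than all multi-promoter genes, given as counts without a test. Their members with 1 cluster were also mostly bound, 15 of 16 and 15 of 19, against 32.0% of all genes with 1 cluster. For such members the counts were 9 of 10 RNA-binding protein genes and 8 of 13 cytoskeleton and adhesion genes. They were 2 of 5 transcription factors of development and 2 of 10 ion channel and synaptic genes. Of 7 chromatin regulators with several promoters, 6 had bound and unbound clusters and 1 had none bound, and 6 of 15 clusters were bound (40.0%). ash2, a subunit of histone H3 lysine methyltransferase complexes, had 2011 at cluster 1 while cluster 2, which started 2 of its 3 transcripts, was in none of the lists. CtBP, a corepressor gene, had 1837 at cluster 1, with the Motif 1 core. Of 20 kinase and signalling genes, 13 had some, 1 (CaMKII) had all and 6 had no clusters bound, and 16 of 64 clusters were bound (25%). Beside Lk6, csw, which encodes a protein tyrosine phosphatase of receptor signalling, had 6323 at cluster 1.

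Cytoskeletal and RNA-binding genes stood nearer to the share of all genes. Of 21 cytoskeleton and adhesion genes, 11 had some and 10 had no clusters bound, and 13 of 71 clusters were bound (18.3%). The polarity gene scrib had 7181 at cluster 1, and shot, which encodes a spectraplakin linking actin and microtubules, had 5710 at cluster 1 and was unbound at clusters 2, 3 and 4. Of 18 RNA-binding protein genes, 8 had some and 10 had no clusters bound, and 8 of 57 clusters were bound (14.0%). Sxl led them, followed by the splicing factor gene Rbfox1, where cluster 2, 34591 bp inside the gene, had 3106 and cluster 1 had no listed summit.

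The 35 genes bound at all clusters included inc, an adaptor of the Cullin 3 ubiquitin ligase, with 5858 at cluster 1 and 2920 at cluster 2, 29591 bp apart. Cluster 1 of inc held the Motif 1 core and cluster 2 the DRE. Nedd4, a ubiquitin ligase gene, had 2020 and 1607 at its clusters 1 and 2. pit, an RNA helicase gene, had 1049 at cluster 1 and 907 at cluster 2. Its weaker cluster 2 held the Motif 1 core and the DRE, and cluster 1 held neither. kdn, the citrate synthase gene, had 809 at cluster 1 and 3072 at cluster 2, and MTF-1, the metal-responsive transcription factor gene, had 4081 and 275 at clusters 1 and 2. CG3552 had 382 and 226. The stronger of the 2 clusters was thus cluster 1 in 5 of these 6 genes.

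Where a gene had 2 or more bound clusters, the strongest was usually the more 5′ one and more often held Motif 1. In the 69 such genes the strongest bound cluster lay 5′ of the weakest in 48 and 3′ of it in 21 (log2 ratio 1.17, exact sign test adjusted over 5 tests, p = 0.00388). The Motif 1 core lay in 14 of the strongest and 1 of the weakest clusters, that of pit (log2 ratio 3.27, adjusted exact McNemar p = 0.00388). The DRE lay in 15 and 17 of them, Motif 7 in 7 and 5, and Motif 6 in 0 and 0, with adjusted exact p of 1 for each. The strongest clusters had a median signal of 1031 and the weakest of 137. The ratio had a median of 3.80 (quartiles 1.69 and 14.2) and was under 2 in 25 genes and over 10 in 23. CycG, a cyclin gene named after its values were seen, had nearly equal signals of 5980 at cluster 2 and 4661 at cluster 3. Rtnl1, which encodes a reticulon of the endoplasmic reticulum and was named likewise, had 7299.97 at cluster 1 and 110.0 at cluster 3. Replicate 1 gave the strongest cluster the higher signal in 69 genes and replicate 2 in 66. The clusters were ranked by the optimal set, made from the same replicates, so these counts largely follow from the choice and were not tested. The position call was lost with a gap of 2000 bp between clusters (31 and 16 genes, adjusted exact p = 0.09997). Both calls were lost among the 2504 strongest peaks and without clusters near another gene, where 10 and 19 genes were left. The log2 ratio for position was then 1.10 and 1.05, and that for the Motif 1 core 1.22 and 2.81.

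**Figure D5:**
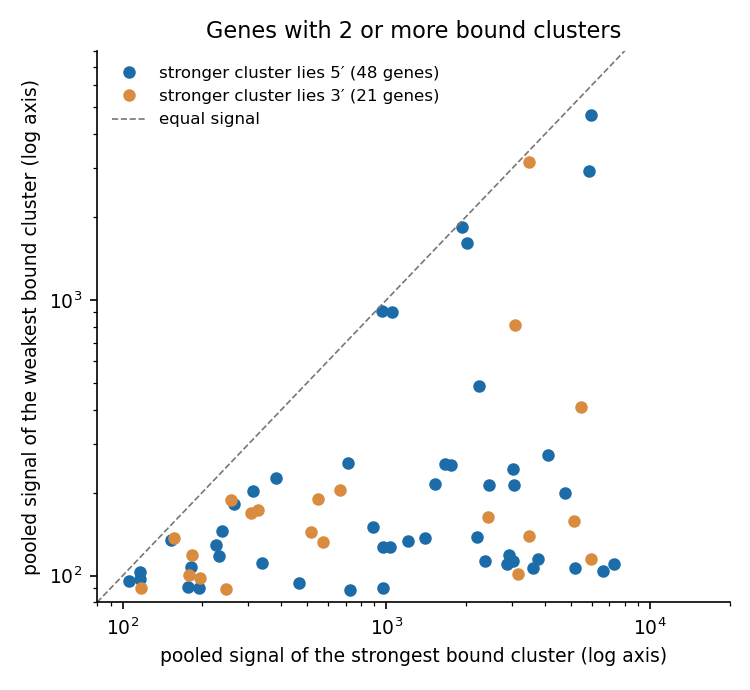
Signal in the optimal set of the strongest bound cluster (x axis) and the weakest bound cluster (y axis) of the 69 genes with 2 or more bound clusters, both axes logarithmic on the authors' scale. Each point is 1 gene, blue where the stronger cluster lies 5′ (48 genes) and orange where it lies 3′ (21 genes), and the dashed line marks equal signal.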

How the data were processed

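The authors deposited peak lists on dm6 for each of the 2 replicates, for their pooled reads and for the optimal IDR set. Column 7 of each deposited list is a peak signal whose scale is not stated, and it was compared only within a list. Information on read depth, IDR settings, peak caller and aligner is not given in the sources used here. Both replicates name the same control entry per the labels. Lists on dm3 were not used here.

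TSSs came from Ensembl release 115 on the same assembly, and summits were counted from 1. The lists of the 2 replicates and the pool hold 30000 lines each, and the 5007 optimal peaks are the strongest of the pooled list. Motif windows ran from −100 to +50 around the TSS used by the most transcripts. The gene was the unit of every test, so genes that share a summit entered the tests as separate units. Tests were two-sided exact sign or McNemar tests with Benjamini-Hochberg adjustment over 14 motifs, 5 annotation features or 5 comparisons of stronger with weaker clusters, at a threshold of 0.05. In log2 ratios of counts, 0.5 was added to both. The software was Python 3.11.15, numpy 2.4.6, pandas 2.3.3, scipy 1.17.1 and matplotlib 3.10.9, and the paired test was tested on simulated data.

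Genes were named by rule: the 10 genes with bound and unbound clusters of highest signal, 6 genes bound throughout, 20 genes known for alternative promoters and the 2 strongest of each of 6 gene lists. Dl, nos, Sir2 and Ph-p of these lists were not matched. The rule for the members, the motifs and the lists were chosen with earlier results of these data known. Alternatives changed the cluster gap, the summit distance, the window, the pairing, the peak set and the neighbours.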

Additional observations from a re-analysis of the deposited data

How the results depend on the processing

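The excess of bound 5′-most clusters kept its direction and its call in all 12 alternatives (log2 ratio 2.00 to 2.53), and the Motif 1 core and the DRE kept theirs in all 17 (3.54 to 7.99 and 2.24 to 3.75). Without clusters near another gene, position was that among the remaining clusters. With 1 gene kept per group of genes with clusters within 1000 bp of each other, 608 genes were left. The position counts were then 482 and 93 (log2 ratio 2.37), and those of the Motif 1 core 120 and 1 (6.33). The share of clusters bound moved to 13.2% with summits within 100 bp, 20.7% within 500 bp, 10.5% with the 2504 strongest peaks and 11.3% without clusters near another gene. With these last 2 settings, 419 and 284 genes had bound and unbound clusters. Of the 5 comparisons of stronger with weaker clusters, 2 passed, but 1 with a gap of 2000 bp, 0 with the 2504 strongest peaks and 0 without clusters near another gene. For these 2 settings 10 and 19 genes were left, and the part of that in the lost calls was not tested. Of 14 motifs 9 passed, but 2 where the bound cluster lay 3′ of the unbound one, a setting chosen after the data were seen, as was its reverse. Leaving out replicate 1 or 2 gave shares of 17.5 and 17.8%, 630 and 634 mixed genes, log2 position ratios of 2.22 and 2.30, and the same 9, 5 and 2 counts of passed tests. The cause of each reversal was not tested, and none of the reversed motifs passed in either setting. The log2 ratio of Motif 7 at stronger clusters turned to −0.16 with a gap of 500 bp, −0.74 within 100 bp and −0.29 without replicate 1 (0.53 without replicate 2). That of the DPE turned to −0.17 without clusters near another gene, −0.24 where the unbound cluster held a relaxed summit, −0.053 at the most 5′ TSS and −0.058 where the bound cluster lay 5′. Zelda turned to 0.49 where the unbound cluster held a relaxed summit, and Pho to −0.033 in the window from −250 to +100. No pairing of samples was possible because the series has 1 group, and no test compares samples. Counting all transcripts of a gene was not run separately, since every transcript of these genes is annotated as protein-coding. Depth is unknown, so an unbound cluster is one without a peak in the optimal set, not one shown to lack gfzf.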

Other observations

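Bound shares of alternative promoters varied little between the chromosomes. They were 17.1% of 701 clusters on 2L, 18.3% of 887 on 2R, 17.4% of 781 on 3L, 16.9% of 872 on 3R and 20.3% of 827 on X, with overlapping 95% exact intervals. On the small chromosome 4, 13 of 49 clusters were bound (26.5%, interval 14.9 to 41.1). Among the 639 genes with bound and unbound clusters, the bound clusters started a median of 50% of the annotated transcripts, and they started most of them in 318 genes.

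Several genes went against the usual direction, with the strongest binding inside the gene. CrebB, which encodes a CREB family transcription factor, was bound at cluster 2 (signal 3879), while its unbound cluster 1 held Motif 7 and had 33.4 in the relaxed pool. mtd was bound at cluster 5 (2726) beside an unbound cluster 4 with Motif 7. In Svil, the gene with 16 clusters, the strongest bound cluster was cluster 14 (5149) and the weakest cluster 1 (157), 89206 bp apart. l(2)05714 had 5945 at cluster 2, with the Motif 1 core, and 115 at cluster 1. These genes were named after their values were seen, and what sets them apart was not tested.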
